A study of Homo sapiens with 2 samples.

Results

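A group of 10 long noncoding RNAs (lncRNAs) known from keratinocytes and from cancer was examined in Ca9-22 cells, a line derived from oral squamous cell carcinoma (OSCC). The group held MALAT1, NEAT1, H19, UCA1, HOTAIR, PVT1, MIR31HG, MIR205HG, TINCR and DANCR, which are 10 of 43317 gene names on the array. Every probe outside the control set that the array named for one of these genes was taken, whatever its signal, which gave 32 probes of 58201. All 10 genes had at least 1 probe, and each probe is given separately.

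Cells of both groups had been infected with a lentiviral vector and kept under blasticidin for 2 weeks. One group received the vector that carries DLEU1, a lncRNA gene of chromosome 13, and the other an empty control vector. The DLEU1 insert was cloned from cDNA of KON, another OSCC cell line, and was expressed in a selected cell population rather than in tissue. Total RNA of each group was labelled with Cy3 and hybridised to 1 array, so there were 2 arrays, 1 per group, with no replicate culture. No test between conditions could therefore be made, and every difference below is one between these 2 arrays only.

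lncRNAs are transcripts that act as RNA and are not read into long proteins. Some of those studied here work in the nucleus. NEAT1 is the scaffold of paraspeckles, nuclear bodies built on this RNA, and MALAT1 collects in nuclear speckles, where splicing factors are stored. Others are precursors or hosts of microRNAs, as are H19, MIR31HG and MIR205HG, while TINCR is known from terminal differentiation of keratinocytes and DANCR from the undifferentiated state of epidermal progenitors. UCA1, HOTAIR and PVT1 were described mostly in tumours. In bulk RNA, fewer cells that express a transcript and less of it per cell cannot be told apart.

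The signal is the processed intensity of a spot, in arbitrary units. Levels are its log2 value minus the 75th percentile of the same array, and differences are the DLEU1 vector array minus the control vector array on that log2 scale. Detection means that the scanner software marked the probe well above background, and a difference was called at 2-fold or more, which is 1 in log2. Beside each difference stands the error that the software assigns to the signals (1 SD, propagated over both arrays), which holds no variation between cultures. Between replicate spots of one probe the SD of the difference was 0.08 over 282 probes, and 0.31 over the 5 of these with a mean signal under 100. Different probes of one gene differed more, with a pooled SD of 0.47 over 4674 genes. Probes bind their targets with unequal efficiency, so signals are compared between arrays and not between probes.

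The labels and the cell line were checked first. The DLEU1 probe with the highest signal was 6.67-fold higher on the DLEU1 vector array, and the other DLEU1 probes differed by 0.85 and 0.54 on the log2 scale. All 7 squamous epithelial markers (KRT5, KRT14, KRT17, TP63, CDH1, EPCAM, SFN) were detected on both arrays. Of these, 4 were at least 2-fold higher with the DLEU1 vector, beside 8.98% of all probes detected on both arrays. SFN was at 0.00 and EPCAM at -0.78 on the log2 scale. The number at least 2-fold higher was 3 with median scaling and 5 with loess. Of 9 markers of other cells, 5 were detected on neither array, among them the T cell gene CD3E, the endothelial gene PECAM1 and the fibroblast gene DCN. COL1A1, VWF, PMEL and PTPRC were detected on both, and COL1A1 and VWF were 15.9-fold and 13.01-fold higher with the DLEU1 vector by their brightest probes, while the other detected VWF probe was at -0.07 on the log2 scale. The part of these markers in the lncRNA values was not tested. The DLEU1 vector array had a damaged strip of spots near one edge, in which 40.6% of 320 spots lit on the control vector array were at least 2-fold lower, against 12.8% outside it. It held 1 of the 32 probes, which belongs to NEAT1.

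Of the 32 lncRNA probes, 31 were detected on both arrays and 1, a MIR31HG probe, on the DLEU1 vector array only. With the DLEU1 vector 13 of the 31 probes (41.9%) were at least 2-fold higher, and 0 were at least 2-fold lower. Over all 26279 probes detected on both arrays, 8.98% were higher and 9.78% lower by that measure. Among the 2401 of these that carry a RefSeq accession of a noncoding transcript, 11.9% were higher and 7.46% lower, and among the 17281 with a coding accession 8.65% were higher and 11.4% lower. The median difference was 0.84 for the 31 probes, against -0.07 for all probes, 0.06 for the noncoding and -0.12 for the coding ones. All MIR205HG probes carry a coding accession on the array, and a HOTAIR probe carries neither kind. The 13 higher probes belonged to MALAT1, NEAT1, H19, HOTAIR, MIR205HG and TINCR. No probe of UCA1, PVT1, MIR31HG or DANCR that was detected on both arrays differed by 2-fold.

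**Figure D1:**
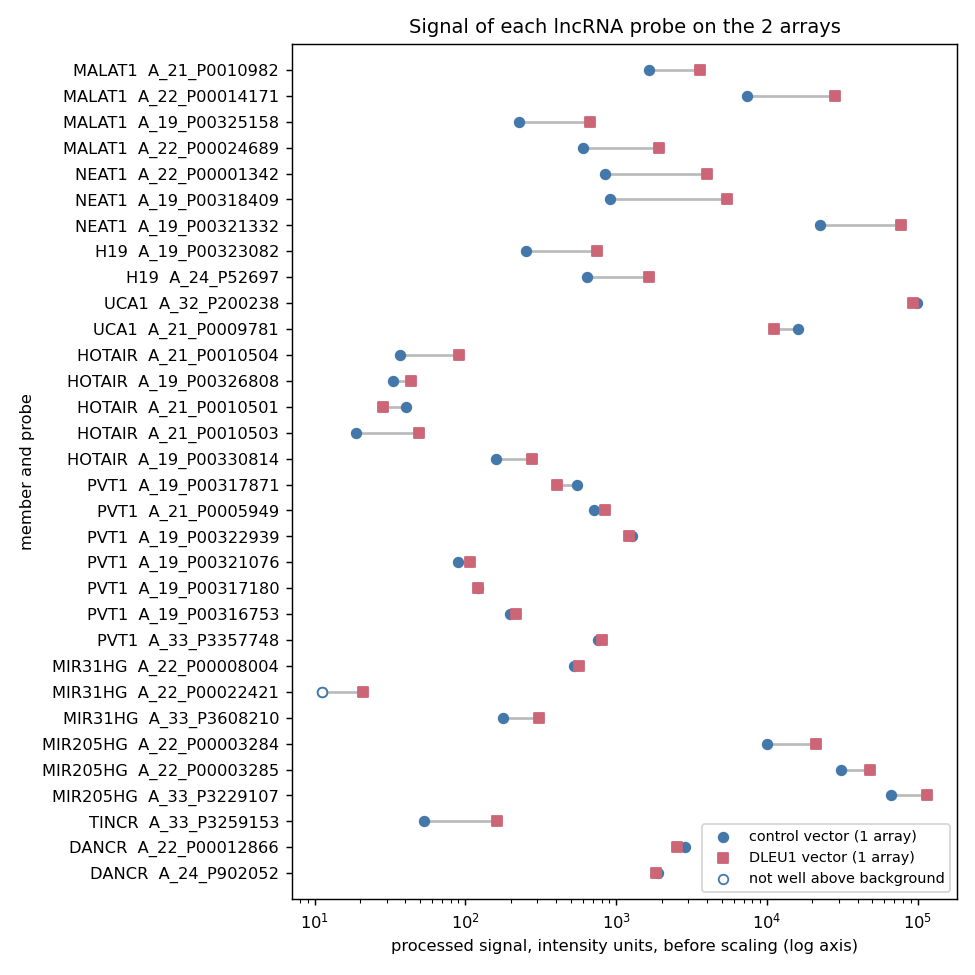
Processed signal (intensity units, log axis, before scaling) of each of the 32 probes on the control vector array (circles) and the DLEU1 vector array (squares), 1 array each. The pairs of MALAT1, NEAT1, H19 and TINCR are spread apart with the square on the right, the pairs of UCA1, PVT1 and DANCR lie close together, and the open circle is the MIR31HG probe not well above background on the control vector array.

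NEAT1 had the largest mean increase of the group. NEAT1 forms 2 transcripts that share their beginning, a short one and a long one, and the long one builds paraspeckles. The 3 probes lie on chromosome 11 between 65192168 and 65193944 (hg19, plus strand), a span of 1777 bases near the beginning of a gene whose length is 22743 bases in RefSeq (GRCh38.p14). They therefore cannot tell the long transcript from the short one. Their sequences are shown because 2 of the probes overlap and are not separate readings of different stretches. Capitals mark the 19 bases that both hold.
A_22_P00001342: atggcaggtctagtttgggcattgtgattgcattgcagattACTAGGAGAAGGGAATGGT
A_19_P00318409: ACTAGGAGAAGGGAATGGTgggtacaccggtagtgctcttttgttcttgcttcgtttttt
A_19_P00321332: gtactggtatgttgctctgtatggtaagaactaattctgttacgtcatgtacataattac

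The signal of A_19_P00318409 was 916 on the control vector array against 5446 on the other, a difference of 2.61 ± 0.20 or 6.10-fold. The overlapping A_22_P00001342 went from 844 to 3993, which is 2.28 ± 0.20 or 4.86-fold. Its spot lies in the damaged strip, where signals of many spots were lost, and yet it was brighter on the DLEU1 vector array. The third probe, A_19_P00321332, starts at base 3616 of its transcript and went from 22582 to 77828.5, a difference of 1.82 ± 0.20 or 3.54-fold. All 3 NEAT1 probes were thus well past 2-fold, and their mean difference was 2.24 with an SD over probes of 0.40. Only 213 of the 26279 probes detected on both arrays showed a larger increase than A_19_P00318409. Without the damaged strip the other probes gave 2.60 and 1.81.

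MALAT1, the neighbour of NEAT1 on chromosome 11, was higher with the DLEU1 vector at each of its 4 probes. It is a nuclear RNA of high abundance in most cells and is mostly left unspliced. The probes lie between 65268619 and 65273930 (hg19, plus strand) and begin at bases 3386, 5747, 8481 and 8638 of the transcript, so that they cover the middle and the 3′ end. They are listed in that order, without capitals, since none of them shares bases with another. The last 2 are separated by 97 bases.
A_21_P0010982: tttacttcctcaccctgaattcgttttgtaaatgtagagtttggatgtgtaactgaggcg
A_22_P00014171: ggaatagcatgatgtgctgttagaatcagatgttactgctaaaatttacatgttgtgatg
A_19_P00325158: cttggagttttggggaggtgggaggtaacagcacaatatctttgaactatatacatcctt
A_22_P00024689: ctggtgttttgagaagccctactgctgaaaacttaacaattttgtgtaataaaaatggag

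The signal of A_21_P0010982 went from 1657.5 on the control vector array to 3570.2, a difference of 1.14 ± 0.20. That of A_22_P00014171 went from 7357 to 28187, which is 1.98 ± 0.20 or 3.93-fold and the largest of the 4. At the 3′ end the signal of A_19_P00325158 went from 227 to 671, a difference of 1.60 ± 0.21. The nearby A_22_P00024689 gave almost the same difference, 1.71 ± 0.20, at signals of 605 and 1925. The 4 differences had a mean of 1.61, or 3.05-fold, and an SD over probes of 0.35, between the median over genes of that SD (0.23) and its pooled value (0.47). The lowest of them, that of A_21_P0010982, was 0.75 and no longer 2-fold when the median of the spike-in probes was set equal on both arrays. Before scaling, single spike-in probes differed between the arrays by -0.19 to 0.54, with a median of 0.36. Below, spike-in probes set equal means that only this median was set equal.

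**Figure D2:**
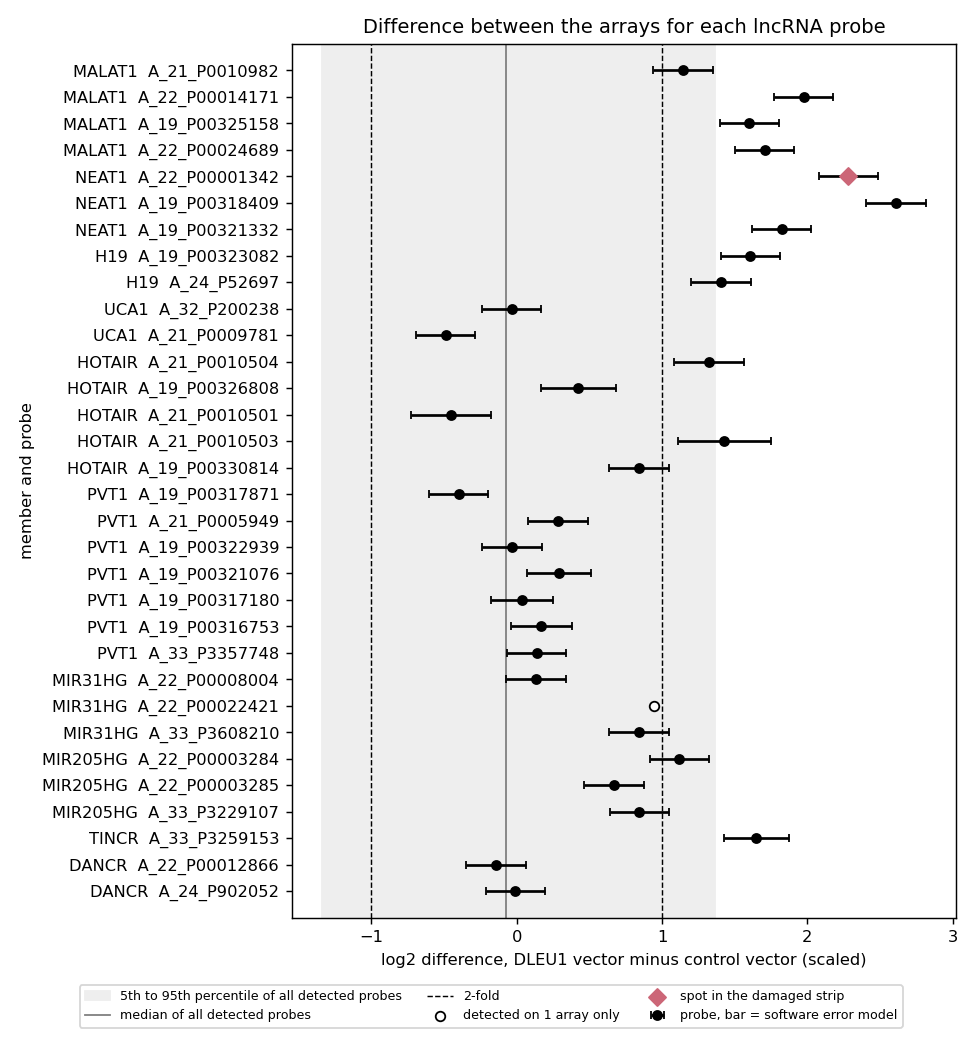
Log2 difference (DLEU1 vector minus control vector, scaled) of each lncRNA probe, with the software error as a bar. The band holds the 5th to 95th percentile of all probes detected on both arrays (-1.34 to 1.36), and the probes of NEAT1, H19 and TINCR, 3 of the 4 MALAT1 probes and the HOTAIR probe at 1.43 lie to the right of it.

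H19 is an imprinted transcript, expressed from the maternal copy and silent in most adult tissues, and it carries the hairpin of miR-675. Both H19 probes were higher with the DLEU1 vector. A_19_P00323082 (chromosome 11, 2016961 to 2017020, hg19, minus strand) went from 252.5 to 749.9, a difference of 1.61 ± 0.21. A_24_P52697 (2016674 to 2016733) went from 643 to 1659, a difference of 1.40 ± 0.20. The probes differed from each other by less than the software error, with a mean of 1.51, or 2.84-fold, and together they span 347 bases.
A_19_P00323082: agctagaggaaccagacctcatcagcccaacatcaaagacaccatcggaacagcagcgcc
A_24_P52697: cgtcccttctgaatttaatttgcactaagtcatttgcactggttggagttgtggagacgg

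MIR205HG and MIR31HG are host genes of microRNAs that are well known from squamous epithelia, miR-205 and miR-31. Their mature sequences and that of miR-675, the microRNA of H19, are given from RefSeq (GRCh38.p14) because the host transcripts and not the microRNAs were measured. Capitals mark the seed, bases 2 to 8, through which a microRNA finds its targets. The 3 seeds differ from each other.
hsa-miR-205-5p: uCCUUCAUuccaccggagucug
hsa-miR-31-5p: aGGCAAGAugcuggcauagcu
hsa-miR-675-5p: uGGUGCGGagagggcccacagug
None of the lncRNA probes lies inside or across one of the 3 hairpins (0 probes), and 0 probes of the array bear the name of these microRNA genes.

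All 3 MIR205HG probes were higher with the DLEU1 vector, and 1 of them was past 2-fold. They lie on chromosome 1 between 209602655 and 209605851 (hg19, plus strand) and had strong signals. A_22_P00003284, the first along the gene, went from 9975 to 21105, a difference of 1.12 ± 0.20. A_22_P00003285 went from 31177 to 48306, which is 0.67 ± 0.20. The adjoining A_33_P3229107 went from 66034 to 115381, which is 0.84 ± 0.20. The mean was 0.88 with an SD over probes of 0.23. Scaling decided which of them were called. With the spike-in probes set equal the first fell below 2-fold (0.72), and with loess the third passed it (1.19).

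MIR31HG gave smaller differences, and none was called. A_22_P00008004, at the beginning of the gene (chromosome 9, 21559488 to 21559547, hg19, minus strand), went from 527.5 to 563.1, a difference of 0.13 ± 0.20. A_33_P3608210, at the other end and within a span of 104832 bases, went from 177 to 310, a difference of 0.84 ± 0.21. A_22_P00022421 was detected with the DLEU1 vector only, at a signal of 21.0 against 11.2, and was at least 1.52-fold higher. Such a bound sets the bright signal against the dim one, or against the lowest detected signal of the dim array where that is higher. The end probes of this gene differ by 0.71, so they do not give a single value for it.

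TINCR, known from terminal differentiation of keratinocytes, was measured by 1 probe. A_33_P3259153 (chromosome 19, 5560319 to 5560378, hg19, minus strand) went from 53.2 to 163, a difference of 1.65 ± 0.22 or 3.14-fold. The control signal was under 100, a range in which replicate spots varied more, and normexp background correction lowered the difference to 1.01. RefSeq now lists TINCR as a protein-coding gene, whereas the other 9 are listed as lncRNA.

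HOTAIR, transcribed from the HOXC gene cluster and known for its link to the chromatin complex PRC2, gave the widest spread between probes. Its 5 probes lie on chromosome 12 between 54350159 and 54362652 (hg19, minus strand), and 4 of them had a control signal of 40.2 or less. They are shown in the order of the transcript on the minus strand, the last being A_21_P0010501. That probe carries the name HOTAIR through an assembled transcript model and not a RefSeq record, and it is separated from the next by 6401 bases. No 2 of them overlap, so no letters are in capitals.
A_21_P0010504: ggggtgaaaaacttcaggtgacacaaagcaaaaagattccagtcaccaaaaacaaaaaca
A_19_P00326808: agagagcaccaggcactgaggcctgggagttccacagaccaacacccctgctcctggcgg
A_21_P0010503: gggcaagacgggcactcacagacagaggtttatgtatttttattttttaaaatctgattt
A_19_P00330814: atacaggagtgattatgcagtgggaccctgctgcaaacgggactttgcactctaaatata
A_21_P0010501: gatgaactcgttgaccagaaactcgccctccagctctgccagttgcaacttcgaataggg

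With the DLEU1 vector the signal of A_21_P0010504 was 90.2 against 37.0, a difference of 1.32 ± 0.24. A_19_P00326808 went from 33.3 to 43.5, which is 0.42 ± 0.26. A_21_P0010503 went from 18.8 to 49.2, which is 1.43 ± 0.32. These 3 probes are all close to background, and after normexp correction A_21_P0010504 and A_21_P0010503 were at 0.69 and 0.49 and no longer called. A_19_P00330814 went from 159.2 to 278.2, a difference of 0.84 ± 0.21. A_21_P0010501 alone was lower with the DLEU1 vector, at 28.6 against 40.2, a difference of -0.45 ± 0.28. The mean of the 5 was 0.71 with an SD over probes of 0.77, larger than the mean itself.

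**Figure D3:**
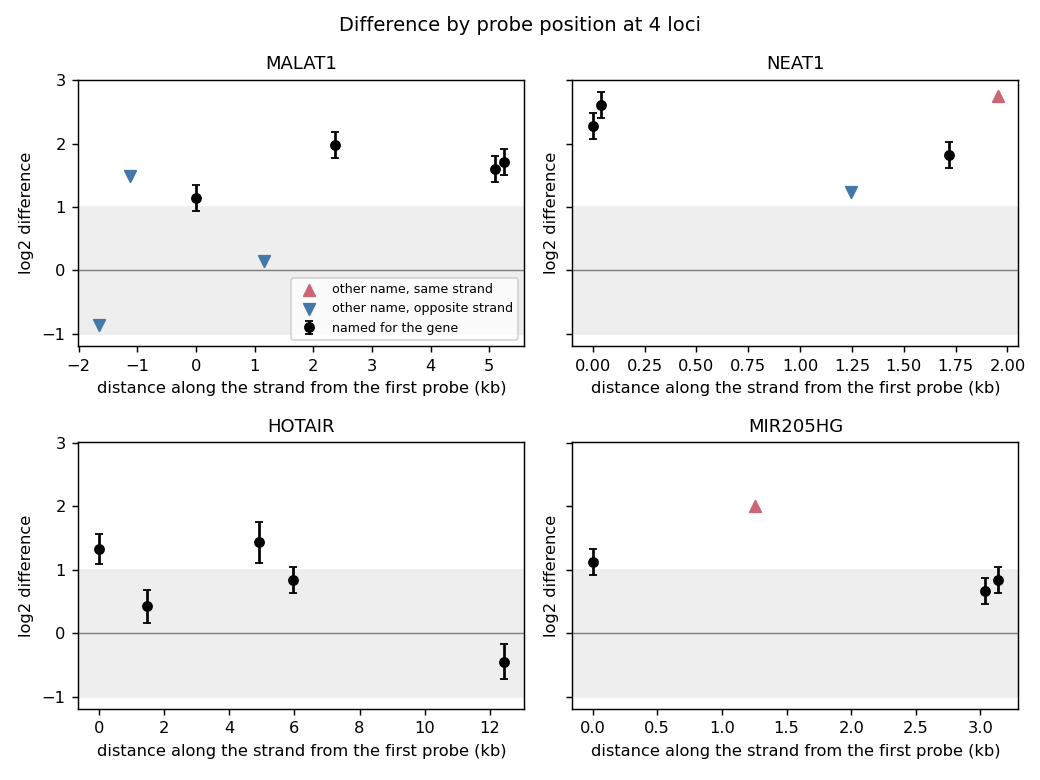
Log2 difference of the probes at 4 loci against their distance along the gene's strand from its first probe (kb), with the software error as a bar on the probes named for the gene. Triangles are probes with other names detected on both arrays, and the shaded band lies within 2-fold. The MALAT1 and NEAT1 probes are above the band along the whole stretch, whereas the HOTAIR probes range from -0.45 to 1.43.

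UCA1, first described in urothelial carcinoma, did not differ by 2-fold. Its probe A_32_P200238 (chromosome 19, 15946035 to 15946092, hg19, plus strand) went from a signal of 98406 to one of 93590.3, a difference of -0.03 ± 0.20. A_21_P0009781 (15947002 to 15947061) went from 16008 to 11111, a difference of -0.49 ± 0.20. The first of these was within the software error of 0 and positive under loess (0.31), while the second was below 0 under each of the 12 other settings tried.

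DANCR was also close to 0 at both of its probes. A_22_P00012866 (chromosome 4, 53579067 to 53579126, hg19, plus strand) went from a signal of 2853 to one of 2517, a difference of -0.14 ± 0.20. A_24_P902052 (53579709 to 53579768) had signals of 1892 and 1830.5, a difference of -0.01 ± 0.20. Both values lie within the software error of 0, and their sign depended on the scaling.

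PVT1, a long gene beside MYC that is often gained in tumours, was covered by 7 probes, of which none differed by 2-fold. A_19_P00317871, the first along the gene, went from 549.9 to 405.9, a difference of -0.40 ± 0.20. A_21_P0005949 went from 708 to 840.1, which is 0.29 ± 0.20, and A_19_P00322939 from 1268.5 to 1207.7, which is -0.03 ± 0.20. The probes A_19_P00321076 and A_19_P00317180 share 47 bases and gave 0.29 ± 0.22, at signals of 89.7 and 107.0, and 0.04 ± 0.21, at signals of 122 and 122. A_19_P00316753 went from 198 to 217, which is 0.17 ± 0.21, and A_33_P3357748 from 753 to 806, which is 0.14 ± 0.20. Over the 7 probes the mean difference was 0.07 with an SD of 0.24. The first probe is the one farthest from 0, and 5 of the 7 differences were above 0, while all 7 were below 0 with the spike-in probes set equal.

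Taken by gene, 9 of the 10 lncRNAs had at least 2 probes detected on both arrays, and in 3 of them, MALAT1, NEAT1 and H19, every such probe was at least 2-fold higher. Over all 4674 gene names with 2 or more detected probes, 4.34% met that condition. The genes were listed with earlier results of these data known, so this share describes them and is no test.

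Genes of proteins and transcripts linked to these lncRNAs were examined next, by their RNA and not by protein. Each gene was taken by its probe with the highest signal among those detected on both arrays. All 12 paraspeckle proteins, which bind NEAT1, had a probe detected on both arrays. A total of 11 had a difference below 0 and 1 above 0, beside 45.6% above 0 over all probes. Only 2 of the 12 were past 2-fold, beside 9.78% lower over all probes, and the median was -0.72 against -0.07. The number past 2-fold was 5 with median scaling, 8 with the spike-in probes set equal, and 1 with quantile, loess and detected-probe scaling. The lowest were RBM14 at -1.54 and DAZAP1 at -1.02, both of which take part in paraspeckle assembly. SMARCA4, a chromatin remodelling ATPase, was at -0.15, and NONO, a core paraspeckle protein, was the highest at 0.28. Among the other detected probes of these genes, those of SFPQ (0.02), PSPC1 (0.004) and NONO (0.17) were not below 0, and the rest were. DAZAP1 was at -0.78 by its other probe, at signals of 27.4 and 15.5, and RBM14 at -1.30 and -1.38. NUDT21 and TARDBP were past 2-fold by another probe, at -1.04 and -1.15. Of 6 SR splicing factors, proteins found with MALAT1 in nuclear speckles, 4 were at least 2-fold lower, again beside 9.78% of all probes. SRSF1 passed only just, and the number was 2 with loess and 3 with quantile or detected-probe scaling and with normexp. The median was -1.06, with SRSF7 at -1.36, SRSF3 at -1.34, SRSF5 at -0.37 and SRSF6 at 0.14. By their other probes SRSF7 was at -0.61 and not past 2-fold, SRSF3 at -1.96, SRSF5 at -0.51 and SRSF6 at 0.65.

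The chromatin proteins linked to HOTAIR went both ways. EZH2 and EED, subunits of PRC2, were 2.82-fold and 2.13-fold lower, whereas JARID2, a PRC2 cofactor, was at 1.36 and the demethylase KDM1A at 0.71. Of the 7, 1 was at least 2-fold higher and 2 lower, beside 8.98% and 9.78% of all probes, and the median was 0.31. With the spike-in probes set equal 0 were higher and 3 lower, with a median of -0.08. The number lower was 1 with quantile, loess and detected-probe scaling. Of 8 differentiation transcripts and proteins linked to TINCR, 5 were detected on both arrays. Each of the 5 had a difference above 0, beside 45.6% of all probes, with a median of 0.60 against -0.07. The probe at that median had signals of 41.49 and 61.42, and that of ALOXE3 had 28.65 and 35.73, both close to background. STAU1 and ALOXE3 were below 0 with the spike-in probes set equal, and STAU1 also with median scaling. FLG, which encodes filaggrin of the cornified layer, was the highest at 3.52, or 11.5-fold, followed by the lipid transporter ABCA12 at 1.32. STAU1, the RNA-binding protein that acts with TINCR, was at 0.08, and the lipoxygenase ALOXE3 at 0.36. LOR, which encodes loricrin, was detected with the DLEU1 vector only and was at least 45.2-fold higher, while CASP14 and ELOVL3 were detected on neither array.

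A further 23 lncRNAs known from cancer were set beside the 10. A total of 22 had a probe and 14 were detected on both arrays. Of these 2 were at least 2-fold higher and 1 lower, beside 8.98% and 9.78% of all probes. The median was 0.07, which became -0.04 with median scaling and -0.32 with the spike-in probes set equal. CASC15 was the highest at 2.14 and BANCR, at signals of 18.2 and 41.2, followed at 1.21. By its other probe CASC15 was at 4.51, at signals of 17.4 and 384.9. LINC00152 was the lowest at -1.79, and HOTTIP, a lncRNA of the HOXA cluster that was close to background, was at -0.51. On the DLEU1 vector array alone 3 more were detected, CASC9 (at least 4.31-fold higher), LINC00511 (at least 3.77-fold) and CDKN2B-AS1 (at least 2.23-fold). Their signals there were only 70.8, 54.35 and 30.9, and the other CDKN2B-AS1 probes were detected on neither array. LUCAT1 was detected with the control vector only and was at least 2.17-fold lower with the DLEU1 vector. That value rests on a probe at a signal of 31.9, and the other LUCAT1 probes were detected on neither array.

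**Figure D4:**
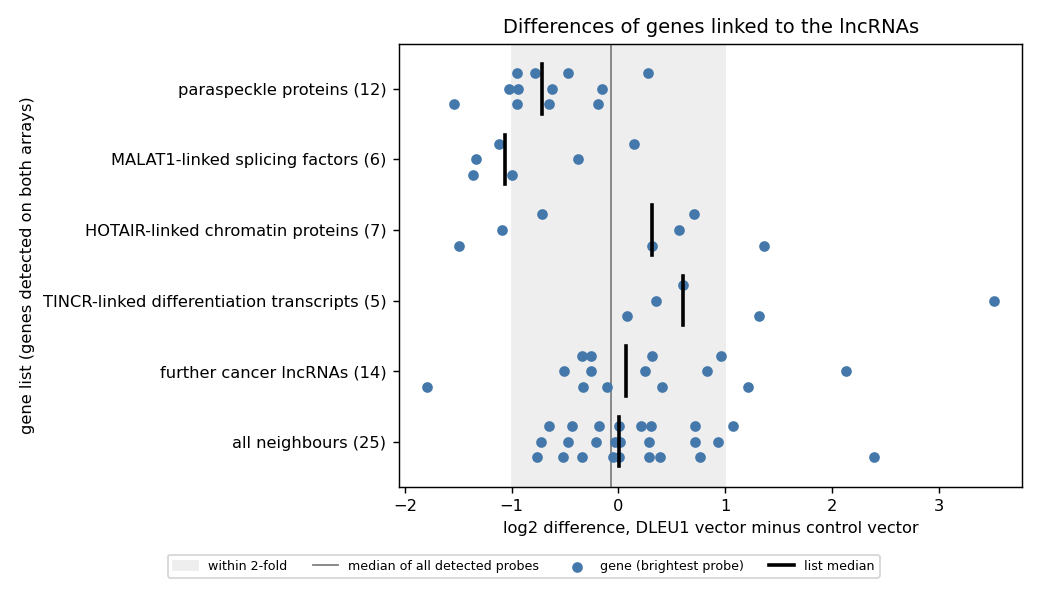
Log2 difference (DLEU1 vector minus control vector) of genes linked to the lncRNAs, by list, each point being a gene's brightest probe detected on both arrays and each bar the list median. The list medians of the paraspeckle proteins (-0.72) and the MALAT1-linked splicing factors (-1.06) lie to the left of the median of all detected probes (-0.07), and those of the TINCR-linked transcripts (0.60) to its right.

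Coding genes with a probe within 100 kb of a lncRNA probe were compared with the lncRNAs. There were 32, of which 25 were detected on both arrays, each again taken by its brightest probe. At least 2-fold higher were 2 and lower 0, beside 8.98% and 9.78% of all probes, and the median was 0.01. With the spike-in probes set equal 1 was higher and 3 lower with a median of -0.39, with quantile, loess and detected-probe scaling 3 were higher, and with median scaling and with normexp 1 was. The brightest probe did not speak for all probes of a gene, since ERVMER34-1 beside DANCR was at 0.01 by that probe and at -1.35 and -1.14 by A_19_P00322687 and A_19_P00319409. FRMD8, located near both MALAT1 and NEAT1, was at 0.94 by its brightest probe and at 1.03 by A_33_P3603812, at signals of 29.2 and 58.2. Its brightest probe passed 2-fold with quantile, loess and detected-probe scaling. By brightest probes no other coding neighbour of either gene was 2-fold higher under the scalings tried. Beside H19, the troponin gene TNNT3 was 5.25-fold higher (2.39) and the mitochondrial ribosomal protein gene MRPL23 was at -0.76. Around HOTAIR the HOXC genes ranged from -0.65 for HOXC5 to 0.72 for HOXC13, with a median of 0.29 over 7 genes, which was -0.11 with the spike-in probes set equal. CYP4F2, a cytochrome P450 gene beside UCA1, was at 1.08, at signals of 60.5 and 124, and at 0.09 by its other detected probe. IFNE, the interferon epsilon gene beside MIR31HG, was detected with the DLEU1 vector only and was at least 2.54-fold higher, at a signal of 35.1. PVT1 and MIR205HG had 0 coding neighbours with a probe in that distance.

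Since the study concerns interferon-stimulated genes, the promoters were searched for 3 short motifs on both strands. These were the core of the interferon-stimulated response element (GAAANNGAA), the core of the STAT-bound GAS element (TTCNNNGAA) and the core of the AP-1 site (TGANTCA). RefSeq windows of 250 bases before to 50 after the gene start were at hand for 5 of the 10 genes (MALAT1, H19, MIR31HG, MIR205HG and DANCR), 6 windows in all, MALAT1 having 2. A single match was found, a GAS core in the DANCR window that begins 219 bases before the start. Of 35116 such windows in RefSeq, 8.11% held the first motif, 7.66% the second and 7.71% the third. A match is a string of letters and not a measured site.

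**Figure D5:**
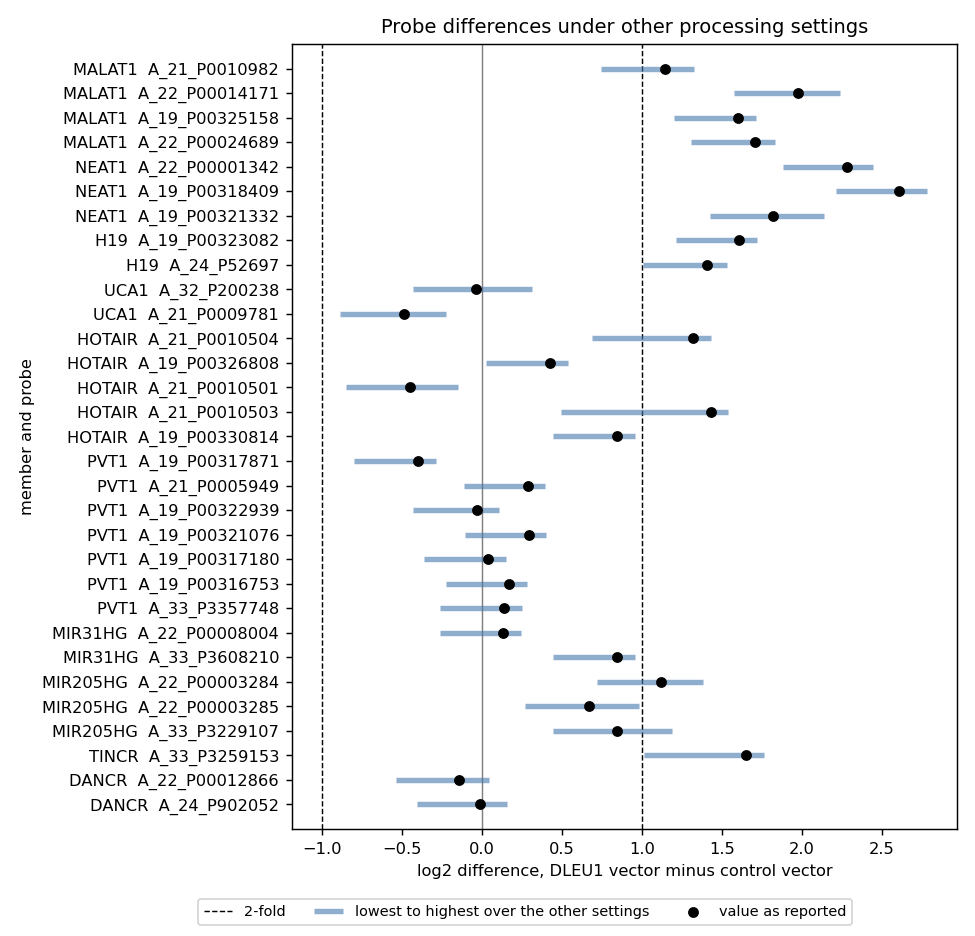
Log2 difference of each lncRNA probe detected on both arrays as reported (points) and its lowest to highest value over the other settings for scaling, background and filtering (lines). The lines of NEAT1, H19 and TINCR and of 3 MALAT1 probes stay to the right of 2-fold, while those of the called HOTAIR and MIR205HG probes cross it.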

How the data were processed

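RNA of Ca9-22 cells with a control vector or a DLEU1 vector was measured on 1 Agilent 1-colour array each. The authors deposited intensity values from Agilent Feature Extraction (version 10.7 in the submitters' processing notes), which subtracts the background, detrends the array and gives dim spots a surrogate value, with no normalization between arrays. Probe positions are on hg19. The authors analysed the arrays with GeneSpring, and no normalization or threshold is given in the sources used here. Their series values hold the same intensity, rounded.

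Control spots and outlier spots were left out, replicate spots were averaged, and log2 intensity minus the 75th percentile of each array (7.92 for the control vector, 7.88 for the DLEU1 vector) was compared. Computations used Python 3.11.15, pandas 2.3.3, R 4.3.3 and limma 3.58.1, and the scaling was tested on simulated data. With 1 array per group, precision is limited by the number of arrays. Other settings were median, detected-probe, quantile, loess (span 0.3), spike-in and no scaling, normexp (offset 50), the series values, 3 other filters, leaving out the damaged strip, and thresholds of 1.5-fold and 3-fold. Named were all lncRNA probes, DLEU1, and the 2 highest and 2 lowest genes of each linked or neighbour list. The lncRNAs and lists were chosen with earlier results of these data known. Of the 32 probes, 27 carry a current RefSeq accession. PVT1 and TINCR sequences are not printed here.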

Additional observations from a re-analysis of the deposited data

Results flagged for a closer look

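Probes with other names and no coding accession lie within 10 kb of the span from a lncRNA's first to its last probe. Some were drawn in the figure of probe positions, but none was used in the counts above. There were 22 of them, 15 detected on both arrays. Of these 15, 4 were at least 2-fold higher on the DLEU1 vector array, beside 8.98% of all probes. None of the 15 was 2-fold lower. At the NEAT1 locus the probe A_21_P0010978, named ENST00000501122, lies 178 bases beyond the last NEAT1 probe on the same strand (chromosome 11, 65194123 to 65194182, hg19). Its signal went from 47.2 to 308, a difference of 2.74. The probe A_21_P0014902 (THC2576171), on the opposite strand there, differed by 1.24. At the MALAT1 locus A_19_P00321977 (lnc-LTBP3-2), on the opposite strand, differed by 1.48, whereas the other probe of the same name, A_19_P00319476, was at -0.85. Another probe on that strand, A_21_P0007464 (ENST00000625158), was at 0.15. At the PVT1 and UCA1 loci the probes with other names detected on both arrays ranged from -0.61 to 0.46. At the MIR205HG locus A_22_P00003286 (lnc-CAMK1G-1), on the same strand and between the MIR205HG probes, went from 995 to 3882, a difference of 2.00, larger than that of any MIR205HG probe.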

How the results depend on the processing

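The number of lncRNA probes at least 2-fold higher (13) stayed between 10 and 14 under the 12 other settings for scaling, background, signal and filter. At thresholds of 1.5-fold and 3-fold it was 17 and 8. The number at least 2-fold lower was 0 under all of these settings. Of the 13 probes, 9 were past 2-fold under every setting that kept them, and the exceptions were 1 MALAT1, 2 HOTAIR and 1 MIR205HG probe. The median difference (0.84) was 0.73 when arrays were scaled to their medians, 0.95 when scaled on detected probes alone, 0.45 with the spike-in probes set equal, 0.61 with normexp and 0.74 without the damaged strip. Median, detected-probe and spike-in scaling moved the median of all probes by -0.11, 0.11 and -0.40, in that order. The numbers of higher and lower probes over the array (2360 and 2571) became 1970 and 3200, 2795 and 2041, and 1254 and 5659. With normexp these numbers were 1329 and 1729, and without the damaged strip 2304 and 2565. The causes were not tested.

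No paired analysis was possible because each group holds 1 array. Signals under 100 limit HOTAIR and TINCR most: 25 of the 31 probes had at least 100 on both arrays.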
